A study of Drosophila melanogaster with 36 samples.

Results

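The comparison set the late subjective day against the morning in the fat body of clock-mutant Drosophila melanogaster larvae. All larvae were third-instar and labelled as of mixed sex. They came from cultures entrained to a cycle with 12 h of light and were sampled in constant darkness. Circadian time (CT) thus counts hours of the subjective day. The per0 larvae lack a functional period gene, a core component of the circadian clock. The late group held the per0 libraries of CT8 and CT32 (4 libraries), and the morning group those of CT0, CT4, CT24 and CT28 (7 libraries), with day entered as a factor. Together these are 11 of the 36 libraries of the series. The w1118 strain, which served as the comparison genotype without the period mutation, gave 12 libraries of the same times, 4 late and 8 morning. Each library came from the dissected fat bodies of 5 pooled larvae, and no other treatment was given. Libraries are named here by time and column letter. The per0 CT28 B library was left out because earlier work on these data found it to hold expression of both genotypes. It carried 12989 CPM of salivary gland markers and 1020 CPM of testis and gonad markers. The 11 libraries used held at most 870 and 174 CPM. These markers concern tissue content, and the mix of genotypes was not tested here. CPM scales a gene count to its library total multiplied by a normalization factor (TMM). This factor ran from 0.664 (CT32 A) to 1.33 (CT8 B), so that summed CPM are not shares of the reads. In CT28 A, for example, 510014 CPM of larval serum and storage genes were 37.8% of its counts.

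The fat body is the insect organ that combines tasks of vertebrate liver and adipose tissue. It stores lipid and glycogen, builds most hemolymph proteins, and releases signals that couple feeding to growth. In fed larvae the insulin and TOR pathways drive ribosome building, protein synthesis and lipogenesis, whereas low nutrient signalling permits FOXO and REPTOR activity, lipolysis and autophagy. The series sampled both genotypes around the clock, which allows the question of how expression in this tissue differs between times of day when period is missing.

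Libraries differed in ways that the groups do not name. Totals ran from 16513757 to 26927686 counts with 9867 to 12763 genes detected, and 3 counts, taken as the detection floor, equalled between 0.0942 and 0.2 CPM. The per transcript itself was at or under 0.657 CPM in every one of the 11 libraries and failed the expression filter, so its level checks no label. Fat body markers, mainly larval serum proteins, summed to 31658 to 508657 CPM in the morning libraries and 48976 to 534978 CPM in the late ones, and all 13 were detected. The male-specific RNA roX1 was under 5 CPM in 3 libraries (CT24 B, CT28 A and CT32 A) and from 87.7 to 313 CPM in the other 8. By this marker these 3 pools held little or no male RNA, against the label of mixed sex. They are all second-day libraries, and CT24 A is the only second-day morning library used with roX1 above 5 CPM. Whether this bears on the difference between days was not tested. Midgut markers exceeded 1000 CPM in 4 libraries (CT0 B, CT4 B, CT8 B and CT24 B). Testis and gonad markers summed to 84.3 CPM in CT8 A, 174 in CT8 B, 3.47 in CT32 A and 55.1 in CT32 B, against 2.67 to 44.1 CPM in the morning. Both CT8 libraries and CT32 B, 3 of the 4 late libraries, thus lay above every morning library in these summed markers. The covariate used below was instead the mean of log2(CPM + 0.5) over the markers. By that measure CT8 A (1.31) and CT8 B (1.98) lay above the morning libraries (-0.83 to 0.63). CT32 B (0.16) and CT32 A (-0.83) did not. The part of such cells in the results below was not tested beyond the alternatives given. Of 25 testis and gonad markers tested 7 rose, among them betaTub85D, a testis-specific tubulin, at 3.14, 13.0, 0 and 2.10 CPM in the 4 late libraries and at most 1.27 CPM in the morning. Muscle markers summed to 4710 CPM in CT32 B, within the 413 to 6550 CPM of the morning libraries.

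**Figure D1:**
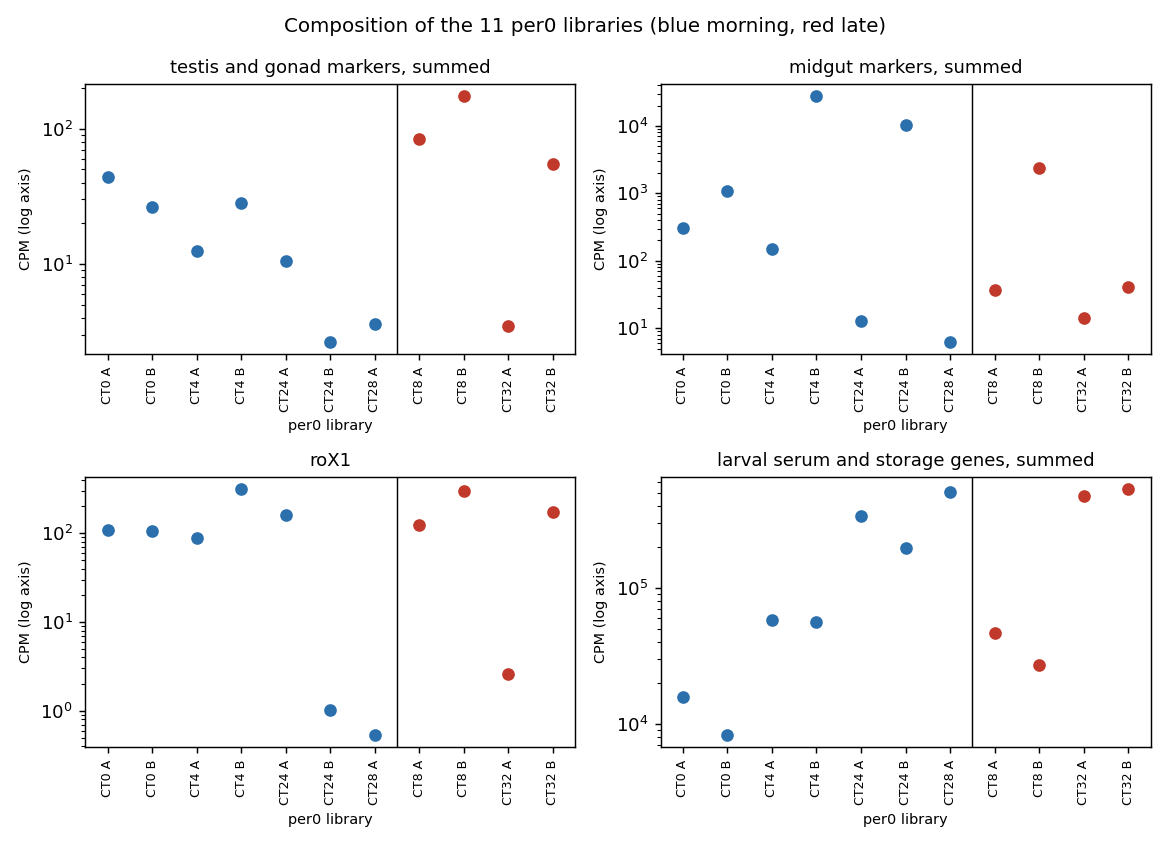
Summed CPM on log axes, 1 point for each of the 11 per0 libraries, for testis and gonad markers, midgut markers, roX1, and larval serum and storage genes. Testis and gonad markers reach 84.3 and 174 CPM at CT8, and roX1 is under 5 CPM in CT24 B, CT28 A and CT32 A.

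Between morning and late day, 31 of 35 ribosome biogenesis genes, 14 of 29 genes of folding in the endoplasmic reticulum and 9 of 19 of serine, glutamine and methionine metabolism fell. Single genes that rose included AkhR, the adipokinetic hormone receptor, and REPTOR-BP, a partner of a factor active at low TOR signalling. A gene was called when its adjusted p was under 0.05 (edgeR quasi-likelihood F test with Benjamini-Hochberg adjustment) and its change had the same sign on each day taken alone. Of 8977 genes tested, 1484 were called (16.5% of those tested), 605 higher in the late day (6.74%) and 879 lower (9.79%). These shares of 6.74% and 9.79% are the background for the list counts given here. The median log2 change over all genes tested was 0.02, and that of the called genes was 0.85 for rises and -0.81 for falls. At least 2-fold changes numbered 253 among the rises and 284 among the falls, and at least 4-fold changes 85 and 19. In 187 called rises and 500 called falls the 4 late libraries did not overlap the 7 morning libraries, against 2.36% of all genes tested for higher and 5.98% for lower values. Of the called genes, 173 rises and 96 falls had a mean under 10 CPM.

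The estimates of called genes were larger on the second day. Called rises had a median log2 change of 0.60 from CT0 and CT4 to CT8 and of 1.11 from CT24 and CT28 to CT32, and called falls of -0.63 and -1.0. Tested alone, the first day gave 16 genes (0.178%) at an adjusted p under 0.05 and the second day 1617 (18.0%), of which 13 were shared. The second-day count was 144 without CT32 B, 863 without CT24 B and 50 without both CT24 libraries, and the first-day count ran from 0 (without CT8 B) to 87 (without CT24 B) when 1 library was left out. Of the 1617 genes, 88.5% had the same sign on the first day, compared with 68.9% of all genes tested. No gene passed in the edgeR test of the difference between days, while 1117 had an unadjusted p under 0.05. DESeq2 called 333 genes in that test and limma-voom called 0.

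**Figure D2:**
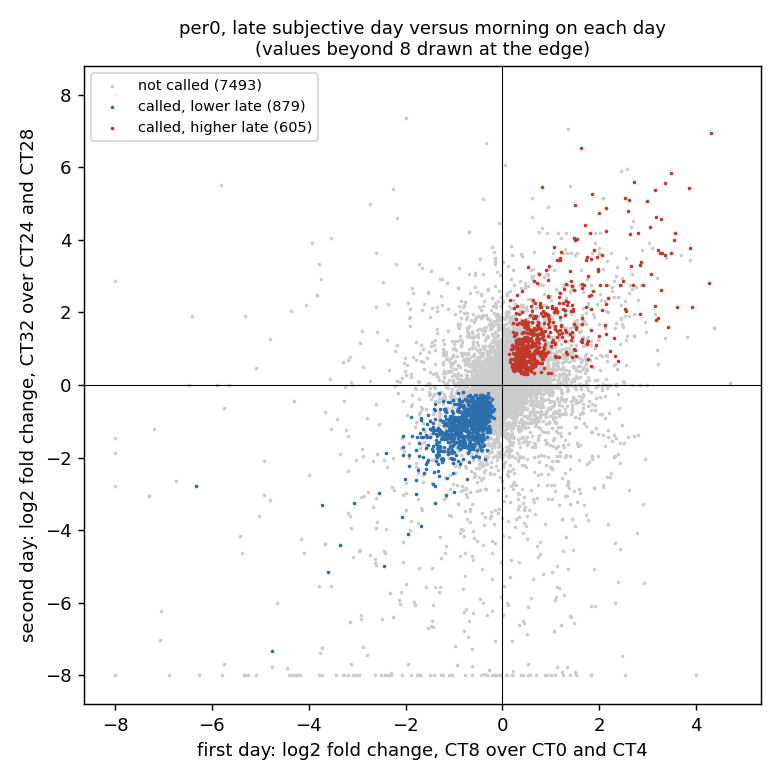
Log2 fold change of each of 8977 genes on the first day (CT8 over CT0 and CT4, horizontal) and on the second day (CT32 over CT24 and CT28, vertical). The 605 called rises lie in the upper right quadrant and the 879 called falls in the lower left, because a call required the same sign on both days; values beyond 8 are drawn at the edge.

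These counts shifted when libraries were left out or marker levels were added as covariates, and the cause of the shifts was not tested. Leaving out 1 library gave between 645 (without CT32 B) and 1393 calls (without CT8 A), with 866 without CT4 A, 914 without CT8 B, 936 without CT24 A and 825 without CT32 A. Without the 3 libraries of low roX1 290 genes were called, and without the 4 libraries of high midgut markers 256. The first fit kept only CT24 A and CT32 B of the second day. The other kept CT8 A as the only late library of the first day. Without the low-roX1 libraries 1484 of 1484 called estimates kept their sign, with a median ratio of 0.918 to the main estimates. Without the high-midgut libraries 1462 of 1462 tested did, with a ratio of 0.971. Fewer libraries also lower the power, so that calls lost in these fits, here and below, are not shown to be lost changes. With the testis marker level as a covariate 13 genes were called, 10 higher and 3 lower, while 1478 of the 1484 estimates kept their sign and the median ratio of the new to the old estimate was 0.955. Among the lists described below, that fit left 1 call, REPTOR-BP. The testis marker level was highest in the CT8 libraries, so the fit cannot fully separate that level from the late day. With only CT4 and CT28 as the morning 18 genes were called, and with only CT0 and CT24 291. In tissue RNA, fewer cells of a type and less RNA per cell cannot be told apart.

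Genes of ribosome biogenesis fell in the late day. Of the list's 35 members tested, 31 fell, with called log2 changes from -2.08 to -0.52 and a median of -1.23 over all 35. In 24 members the late libraries lay below every morning library, against 5.98% of all genes tested. For nop5, a core protein of the snoRNPs that modify ribosomal RNA, CT0 and CT4 libraries held 89.5, 118, 133 and 83.5 CPM and CT8 libraries 32.4 and 22.4 CPM. On the second day nop5 measured 67.4, 124 and 46.1 CPM at CT24 and CT28 and 21.1 and 12.3 CPM at CT32. All 4 late values were below all morning values, a log2 change of -2.08 ± 0.30 (SE; adjusted p = 0.00563, edgeR). Fibrillarin (Fib), the methyltransferase of the same particles, was at 25.5, 13.1, 6.37 and 4.08 CPM late and 23.0 to 64.0 CPM in the morning (median 46.2), and fell by 2.0 ± 0.37 log2. Polr1B, a large subunit of RNA polymerase I, was at 16.7, 13.5, 8.89 and 5.85 CPM late and 23.3 to 61.3 CPM in the morning (median 43.9). Its change was -1.98 ± 0.30 log2 with no overlap between the groups. The nucleolar protein Mybbp1A (-1.99 ± 0.35) and nclb, which associates with RNA polymerase I at ribosomal DNA (-1.3 ± 0.18), also fell. Without the libraries of low roX1 23 of the ribosome biogenesis genes fell, and without those of high midgut markers 16; with only CT0 and CT24 as the morning 19 fell.

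Other parts of the protein synthesis machinery were lower too, although 83 of 84 ribosomal proteins of the cytosol did not pass the test. Of 72 mitochondrial ribosomal proteins 34 fell, all 72 had a negative estimate, and their median was -0.67. That median was -0.38 on the first day and -1.04 on the second. In only 1 of the 72 did the late libraries lie below every morning library, against 5.98% of all genes tested. For mRpS6, of the small mitochondrial subunit, the late libraries held 23.5, 24.9, 9.21 and 6.05 CPM and the morning libraries 21.2 to 48.8 CPM (median 36.5), so that the groups overlapped; its change was -1.19 ± 0.26 log2 (adjusted p = 0.0167, edgeR). Between 2 and 28 mitochondrial ribosomal proteins were called lower when 1 library was left out, 22 with a roX covariate and 3 with a midgut covariate. Of 33 aminoacyl-tRNA synthetases 13 fell, with a median of -0.49. GlyRS, which charges glycine, was at 130, 117, 141 and 91.8 CPM late and 159 to 281 CPM in the morning (median 232). Its late values all lay below the morning ones, and the change was -0.86 ± 0.17 log2. Of 46 translation factors 10 fell and 1 rose. The falls included eIF6, which also acts in the maturation of the large ribosomal subunit (-1.53 ± 0.31), and eIF4E1, the cap-binding protein (-0.47 ± 0.10). Of 84 cytosolic ribosomal proteins 1 fell, RpL34a (-0.44 ± 0.13), a gene with a close copy whose call was lost in 25 of 33 alternatives, and the list's median was -0.11. Of 33 proteasome and 65 respiratory chain genes edgeR called none, with 5 and 23 at an unadjusted p under 0.05. DESeq2 called 1 and 6 of them and limma-voom 0 and 2.

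**Figure D3:**
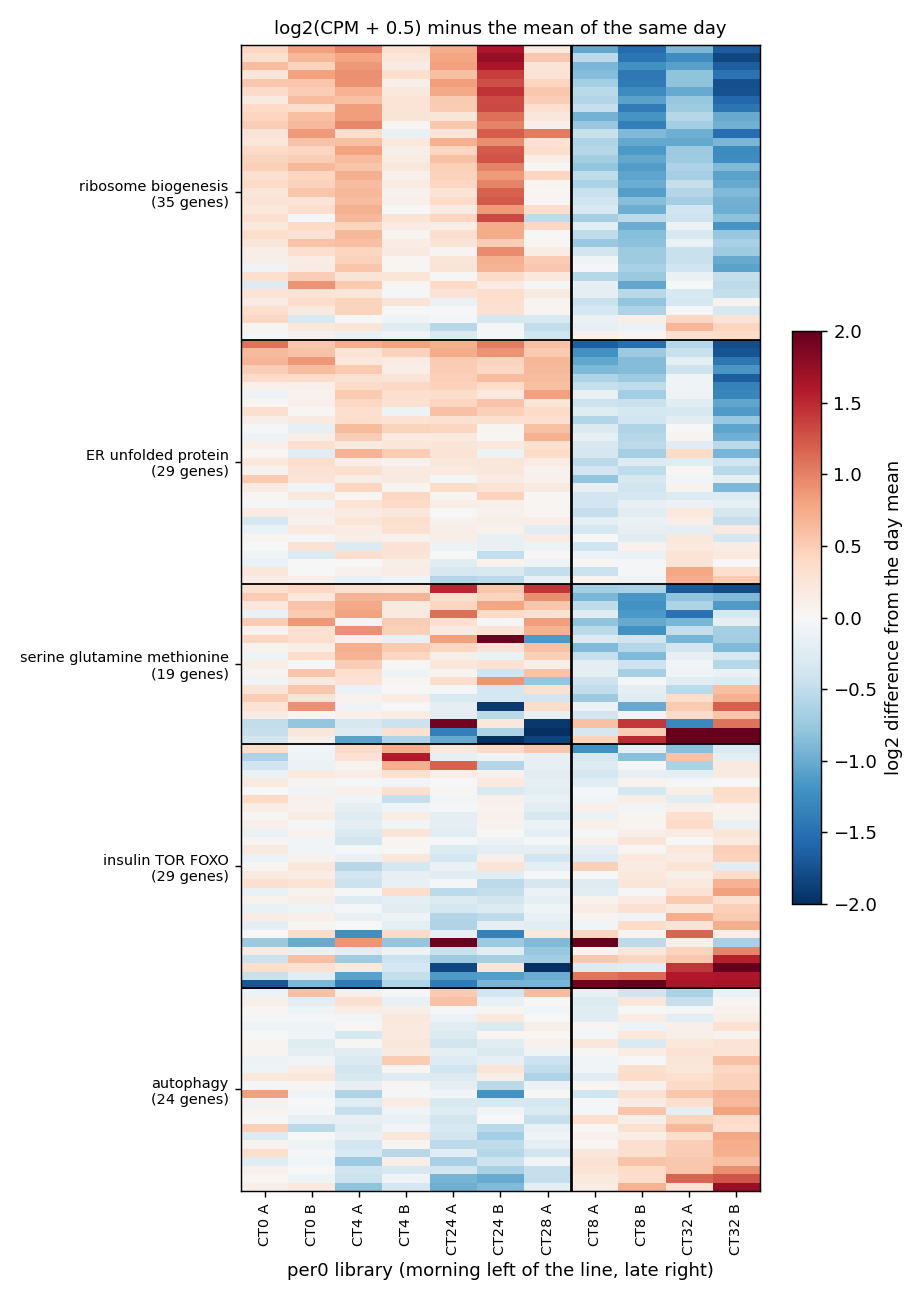
Each row is 1 gene and each column 1 per0 library, coloured by log2(CPM + 0.5) minus the gene's mean over the libraries of the same day; morning libraries are left of the vertical line and late ones right. The ribosome biogenesis block (35 genes) is mostly blue in the 4 late libraries, the autophagy block (24 genes) mostly red at CT32.

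Genes of protein folding in the endoplasmic reticulum fell in 14 of 29 members, with a median of -0.55 that was alike on both days (-0.57 and -0.53). In 12 members the late libraries lay below every morning library, against 5.98% of all genes tested. Hsc70-3, the fly BiP and main chaperone of this compartment, was at 2010, 2190, 2070 and 1580 CPM at CT0 and CT4 and at 771 and 791 CPM at CT8. It was at 2500, 2340 and 2760 CPM at CT24 and CT28 and at 1330 and 782 CPM at CT32. The late values stayed below every morning value, a change of -1.29 ± 0.17 log2 (adjusted p = 0.00477, edgeR). Its nucleotide exchange factor Sil1 was at 13.1, 14.5, 22.6 and 9.46 CPM late and at 50.9 to 90.7 CPM in the morning (median 69.5), and fell by 2.15 ± 0.25 log2. The co-chaperone P58IPK (-1.55 ± 0.23) and the lectin chaperone Cnx99A (-0.75 ± 0.12) fell, as did the GRP94 homologue Gp93 (-1.34 ± 0.24), which was picked after its values were seen. Of 12 heat shock genes 3 fell. These were the cytosolic chaperone Hsp83 (-1.24 ± 0.32), the nucleotide exchange chaperone Hsp110 (-1.08 ± 0.19) and the mitochondrial chaperonin Hsp60A (-1.06 ± 0.32). The Hsp60A call was lost in 28 of 33 alternative analyses. Without the low-roX1 libraries 7 endoplasmic reticulum genes fell, and without the high-midgut libraries 2.

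Among the listed genes of amino acid and one-carbon metabolism most of those called were lower. Of 19 genes of serine, glutamine and methionine metabolism 9 fell and 1 rose, with a median of -0.48. The rise was Gs1, a glutamine synthetase that fixes ammonia onto glutamate, at 199, 279, 123 and 170 CPM at CT0 and CT4 and 351 and 723 CPM at CT8. At CT24 and CT28 it measured 131, 66.0 and 73.1 CPM, and at CT32 1410 and 1440 CPM. Its late libraries lay above all morning libraries, with a log2 change of 2.81 ± 0.52 (adjusted p = 0.00882, edgeR), 1.49 on the first day and 3.98 on the second. Gdh, the glutamate dehydrogenase, which was picked after its values were seen, went the other way, from 938 to 1954 CPM in the morning (median 999) to 475, 486, 213 and 197 CPM late. This is a change of -1.83 ± 0.39 log2. Cth, the cystathionine gamma-lyase that makes cysteine from methionine-derived cystathionine, was at 306, 256, 379 and 359 CPM late and at 666 to 1270 CPM in the morning (median 909). Its change of -1.50 ± 0.16 log2 had an adjusted p of 0.00274, and it was among the 16 genes called on the first day alone. Ahcy, the adenosylhomocysteinase of the methionine cycle, fell by 1.34 ± 0.19 log2. Without the low-roX1 libraries 3 of these genes fell, and without the high-midgut libraries 2.

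In lipid metabolism the called genes of fatty acid synthesis were mostly lower. Of 22 genes of fatty acid synthesis 8 fell and 1 rose, with a median of -0.39. Acly, the ATP-citrate lyase that supplies acetyl-CoA, was at 2660, 2530, 2700 and 1160 CPM late and at 3280 to 6370 CPM in the morning (median 5010). The groups did not overlap, and the change was -1.11 ± 0.26 log2 (adjusted p = 0.0215, edgeR). FASN2, a fatty acid synthase, was at 50.6, 50.9, 57.7 and 30.4 CPM late and 108 to 191 CPM in the morning, a change of -1.44 ± 0.23 log2. Zw, the glucose-6-phosphate dehydrogenase that supplies NADPH, fell by 1.04 ± 0.23 log2; the antisense gene et shares its exons, and without strand the reads of the pair cannot be told apart. The sugar-sensing factor Mondo (-0.96 ± 0.22) and the lipogenic factor SREBP (-0.51 ± 0.13), the latter picked after its values were seen, fell as well. The SREBP call was lost in 21 of 33 alternative analyses. The 2 falls among 18 genes listed under triglyceride and lipid droplets were CCT1 (-1.10 ± 0.25) and CCT2 (-0.73 ± 0.19). These symbols also name subunits of a cytosolic chaperonin, so that their place in this list is uncertain. The CCT2 call was lost in 17 of 33 alternatives. The 2 rises in this list were droplet proteins. Jabba, which binds histones to lipid droplets, was at 477, 752, 503 and 659 CPM at CT0 and CT4 and at 792 and 1650 CPM at CT8. At CT24 and CT28 it was at 587, 660 and 521 CPM, and at CT32 at 1930 and 1990 CPM. Every late library exceeded every morning library, with a change of 1.38 ± 0.23 log2. Lsd-1, a perilipin that gates lipolysis, rose by 0.82 ± 0.20 log2 with overlapping groups. With the mixed CT28 B library included 1 member of the fatty acid synthesis list fell, and also 1 without the low-roX1 or without the high-midgut libraries.

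In lipid release and oxidation, AkhR, the receptor of adipokinetic hormone, was at 157, 227, 307 and 428 CPM late and at 62.3 to 136 CPM in the morning (median 105). It rose by 1.42 ± 0.23 log2 (adjusted p = 0.00634, edgeR) with no overlap. Among 10 genes of lipases and adipokinetic hormone signalling, the lipase Lip4 also rose (2.55 ± 0.63) and Lip2 fell (-1.37 ± 0.35, at a level under 10 CPM). The triglyceride lipase brummer (bmm) had an estimate of 1.96 ± 0.63 log2 that missed the threshold (adjusted p = 0.0580), with 16.1, 20.5, 51.4 and 83.4 CPM late and 3.14 to 23.4 CPM in the morning. Of 21 genes of mitochondrial beta-oxidation 4 rose and 1 fell, against 6.74% higher and 9.79% lower over all genes tested. The rises included whd, the carnitine palmitoyltransferase that admits fatty acids to mitochondria, at 197, 272, 474 and 470 CPM late and 51.0 to 183 CPM in the morning. Its change was 1.68 ± 0.34 log2. Of 16 peroxisomal genes 5 rose, among them the import receptor Pex5 (0.69 ± 0.13) and the acyl-CoA oxidase Acox57D-p (0.94 ± 0.16). The latter lies beside a related copy that rose as well (Acox57D-d, 0.71 ± 0.20). The Acox57D-d call was lost in 20 of 33 alternatives, and Sdc, at 177 CPM, overlaps its exons on the other strand. These 4 and 5 calls were lost when the low-roX1 libraries were left out, and 1 gene of each list was called higher without the high-midgut libraries.

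In nutrient and endocrine signalling, REPTOR-BP, CNMa and Lst rose together. REPTOR-BP encodes the binding partner of REPTOR, the factor that drives the transcriptional response to low TOR activity. It was at 11.8, 13.8, 7.46 and 11.5 CPM at CT0 and CT4 and at 34.6 and 36.3 CPM at CT8. At CT24 and CT28 it was at 8.37, 8.61 and 9.34 CPM, and at CT32 at 58.5 and 59.2 CPM. The duplicates of each late time lay close together and above all morning values. The change was 2.21 ± 0.22 log2 (adjusted p = 0.00193, edgeR), and it passed in 32 of 33 alternative analyses, with estimates from 1.99 to 2.51. CNMa, a neuropeptide known in the adult gut for its release on amino acid shortage, was at 0.234, 0.785, 0.407 and 1.09 CPM at CT0 and CT4 and at 8.66 and 15.1 CPM at CT8. It was at 5.04, 7.16 and 7.20 CPM at CT24 and CT28 and at 44.8 and 45.2 CPM at CT32. Levels were thus higher on the second day at both phases, and late exceeded morning within each day, by 4.27 log2 on the first and 2.80 on the second. The overall change was 3.58 ± 0.40 log2 (adjusted p = 0.00274).

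Lst encodes Limostatin, a peptide known in adult flies to restrain insulin release. It was at 209, 367, 752 and 947 CPM late and at 26.8 to 85.6 CPM in the morning (median 56.2), a rise of 3.23 ± 0.45 log2 (adjusted p = 0.00509, edgeR) without overlap. Ilp6, the insulin-like peptide of the fat body, rose by 1.3 ± 0.34 log2 from 3.98 to 10.6 CPM in the morning to 10.1, 9.38, 17.5 and 36.0 CPM late. The activin-like ligand dawdle (daw), which adjusts carbohydrate use, rose by 1.07 ± 0.32 log2, and chico, the insulin receptor substrate, by 0.48 ± 0.10. The daw call was lost in 22 of 33 alternative analyses. Of the 29 genes of insulin, TOR and FOXO signalling 6 rose and 1 (Mondo) fell, with a median of 0.28. Over all genes tested 6.74% were called higher and 9.79% lower. Of 24 autophagy genes 7 rose, with a median of 0.40 that was 0.15 on the first day and 0.70 on the second. Atg8a, the ubiquitin-like protein of the autophagosome membrane, was at 171, 191, 590 and 633 CPM late and at 111 to 188 CPM in the morning (median 140). Its CT8 libraries lay within or just above the morning range and its CT32 libraries far above it, a change of 1.23 ± 0.29 log2. The membrane carrier Atg9 (0.87 ± 0.18) and the lipid kinase Pi3K59F (0.81 ± 0.18) rose with no overlap between groups. The 7 autophagy calls were lost both without the low-roX1 and without the high-midgut libraries, while 2 and 3 of the signalling genes were called higher.

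**Figure D4:**
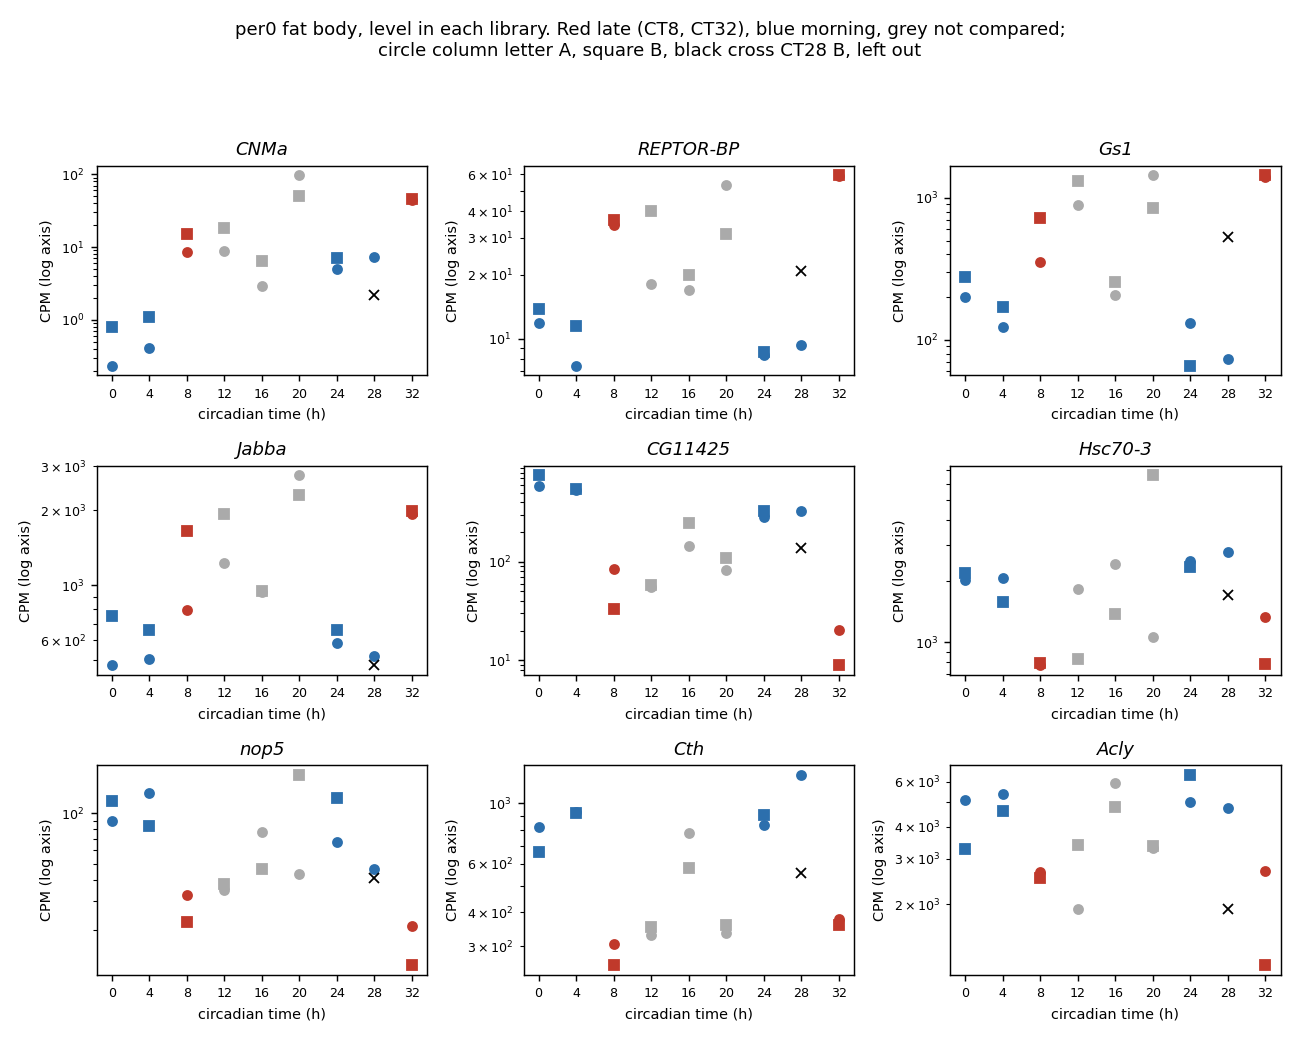
CPM on log axes against circadian time for 9 genes in all 18 per0 libraries; red points are the late libraries (CT8, CT32), blue the morning ones, grey the times not compared, and the cross is CT28 B, left out. REPTOR-BP, Gs1, Jabba and CNMa are higher in red than in blue on both days, and CG11425, Hsc70-3, nop5, Cth and Acly are lower.

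Carbohydrate genes gave single changes, while over all genes tested 6.74% were called higher and 9.79% lower. Pdk, the kinase that shuts pyruvate dehydrogenase and so spares glucose, was at 76.8, 123, 213 and 296 CPM late and at 41.9 to 72.0 CPM in the morning, and rose by 1.44 ± 0.26 log2 (adjusted p = 0.00874, edgeR) without overlap. It was the 1 call among 20 glycolysis genes. Of 13 glycogen and trehalose genes 2 rose, phosphoglucomutase Pgm1 (0.74 ± 0.17) and the sugar-responsive factor sugarbabe (sug, 1.26 ± 0.37). The sug call was lost in 22 of 33 alternatives, and CG13319, at 30.9 CPM, overlaps its exons on the same strand. Of 20 genes of purine, urate and eye pigment synthesis 6 fell, including the purine synthesis enzyme Pfas (-0.66 ± 0.14), and 1 rose. The pyrimidine catabolic enzyme su(r) was at 76.7, 61.3, 113 and 79.7 CPM late and at 158 to 520 CPM in the morning (median 283), a change of -1.93 ± 0.22 log2.

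Of 56 antioxidant and detoxification genes 6 fell and 7 rose, against 9.79% lower and 6.74% higher over all genes tested. The falls held 5 glutathione S-transferases, which conjugate glutathione to electrophiles. GstD1 was at 742, 704, 533 and 363 CPM late and at 966 to 1530 CPM in the morning, a change of -1.14 ± 0.21 log2 (adjusted p = 0.00897, edgeR). GstE6 fell by 2.18 ± 0.42 log2, GstD2 by 2.16 ± 0.44 and GstD3 by 1.94 ± 0.48. GstD4, which is on no list, fell by 2.82 ± 0.54. The GstD genes are related neighbours. How the authors' counting treated reads that match several of them is not given, so that single members are uncertain. Of the rises 4 were cytochrome P450 genes, among them Cyp6a9, at 10.7, 7.57, 21.1 and 27.3 CPM late and at 2.58 to 5.68 CPM in the morning (2.05 ± 0.28 log2).

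In immunity and development few list members were called, while over all genes tested 6.74% were called higher and 9.79% lower. With so few calls these lists are not read as changed as a whole. Among 23 immune recognition genes 3 rose, the beta-glucan sensor GNBP3 (1.17 ± 0.24), GNBP2 (0.70 ± 0.17) and the NF-kappaB factor Dif (0.66 ± 0.15). Among 9 antimicrobial peptides the 2 falls, CecC (-3.21 ± 0.89) and Drsl5 (-1.61 ± 0.45), had at most 2.81 CPM, and their calls were lost in 17 of 27 and 22 of 31 alternatives. The 2 ecdysone rises among 19 genes were shd, the enzyme that makes active 20-hydroxyecdysone (1.75 ± 0.26), and the early nuclear receptor Eip75B (0.59 ± 0.16, lost in 19 of 33 alternatives). For shd the level was 34.1, 66.7, 176 and 243 CPM late and 15.7 to 71.7 CPM in the morning, with the second day above the first. Of 16 basement membrane genes, PH4alphaEFB, the collagen prolyl hydroxylase of the fat body, fell by 1.13 ± 0.15 log2 without overlap and Timp, a metalloproteinase inhibitor, rose by 1.47 ± 0.44, a call lost in 23 of 31 alternatives. Of 15 iron and metal genes the 2 rises were Tsf1, the iron carrier transferrin (2.37 ± 0.70), and the metallothionein MtnA (1.3 ± 0.37). Tsf1 read 101 CPM in CT8 A but 8.95 CPM in CT8 B, below every morning library, so its first-day direction rested on 1 library. The Tsf1 call was lost in 25 of 33 alternatives and the MtnA call in 23.

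Among genes averaging at least 10 CPM, several of the 12 largest rises lay in genes that carry only a CG number as symbol. CG4716 was at 5.39, 5.94, 6.38 and 10.8 CPM at CT0 and CT4 and at 151 and 128 CPM at CT8. It was at 53.6, 9.74 and 5.20 CPM at CT24 and CT28 and at 2720 and 2890 CPM at CT32. The groups did not overlap, and the change was 5.72 ± 0.76 log2 (adjusted p = 0.00481, edgeR). CG8665 was at 111, 438, 2480 and 1270 CPM late and at 8.33 to 70.2 CPM in the morning (median 35.0), a rise of 4.27 ± 0.78 log2. CG14400 was at 0.847 and 0.258 CPM at CT8, above 0.067 to 0.229 CPM at CT0 and CT4, and at 81.3 and 55.1 CPM at CT32, above 1.12 to 3.84 CPM at CT24 and CT28. Its change was 3.91 ± 0.62 log2. The first-day CG14400 values lay near the floor of 3 counts, and twit, at 1.34 CPM, overlaps its exons on the other strand, so the first-day direction is uncertain. Further rises among these 12 were CG18563 (4.51 ± 1.10), CG33225 (3.75 ± 0.79), the serine protease homologue SPH93 (3.53 ± 1.06), Mtkl (3.44 ± 0.50), the lectin-domain gene nw (3.77 ± 1.07) and the maltase Mal-A5 (2.85 ± 0.72). For SPH93, CG18563 and Mal-A5 the CT8 libraries held at most 10.5 CPM, and the CT32 libraries held 94.1 and 382, 180 and 341, and 694 and 2050 CPM. The SPH93 call was lost in 24 of 33 alternatives and the nw call in 18 of 32. CG8389 (3.15 ± 0.67) overlaps exons of Prosbeta1 on the other strand, and the reads of the pair cannot be told apart.

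Among falls, CG11425, listed with the synonym LPP-like for lipid phosphate phosphatases, was at 588, 755, 530 and 545 CPM at CT0 and CT4 and at 84.0 and 33.2 CPM at CT8. It was at 285, 327 and 325 CPM at CT24 and CT28 and at 20.4 and 8.87 CPM at CT32. The highest late library lay well below the lowest morning library, and the change was -3.83 ± 0.38 log2 (adjusted p = 0.00193, edgeR). CG13051, with the largest fall among called genes averaging at least 10 CPM, changed by -6.30 ± 1.92 log2 (adjusted p = 0.0495), and it was at 147 and 17.4 CPM in the CT0 libraries and at most 3.56 CPM in all others, and its call was lost in 21 of 29 alternative analyses.

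Clock genes gave little. Of 12 core clock genes tested 1 was called, Pp2A-29B, a scaffold subunit of the phosphatase that acts on clock proteins, with 0.34 ± 0.10 log2 at the edge of the threshold (adjusted p = 0.0499, edgeR) and lost in 28 of 33 alternatives. timeless (tim), the partner of period, was at 0.282, 0.129, 1.77 and 10.6 CPM late and at 0.167 to 1.89 CPM in the morning, with 1.31 ± 1.31 log2 (adjusted p = 0.516) and opposite signs on the days. The genes per, Clk and cry failed the expression filter. Of 5 clock output genes tested, CNMa rose and Usp10 fell (-0.50 ± 0.10).

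**Figure D5:**
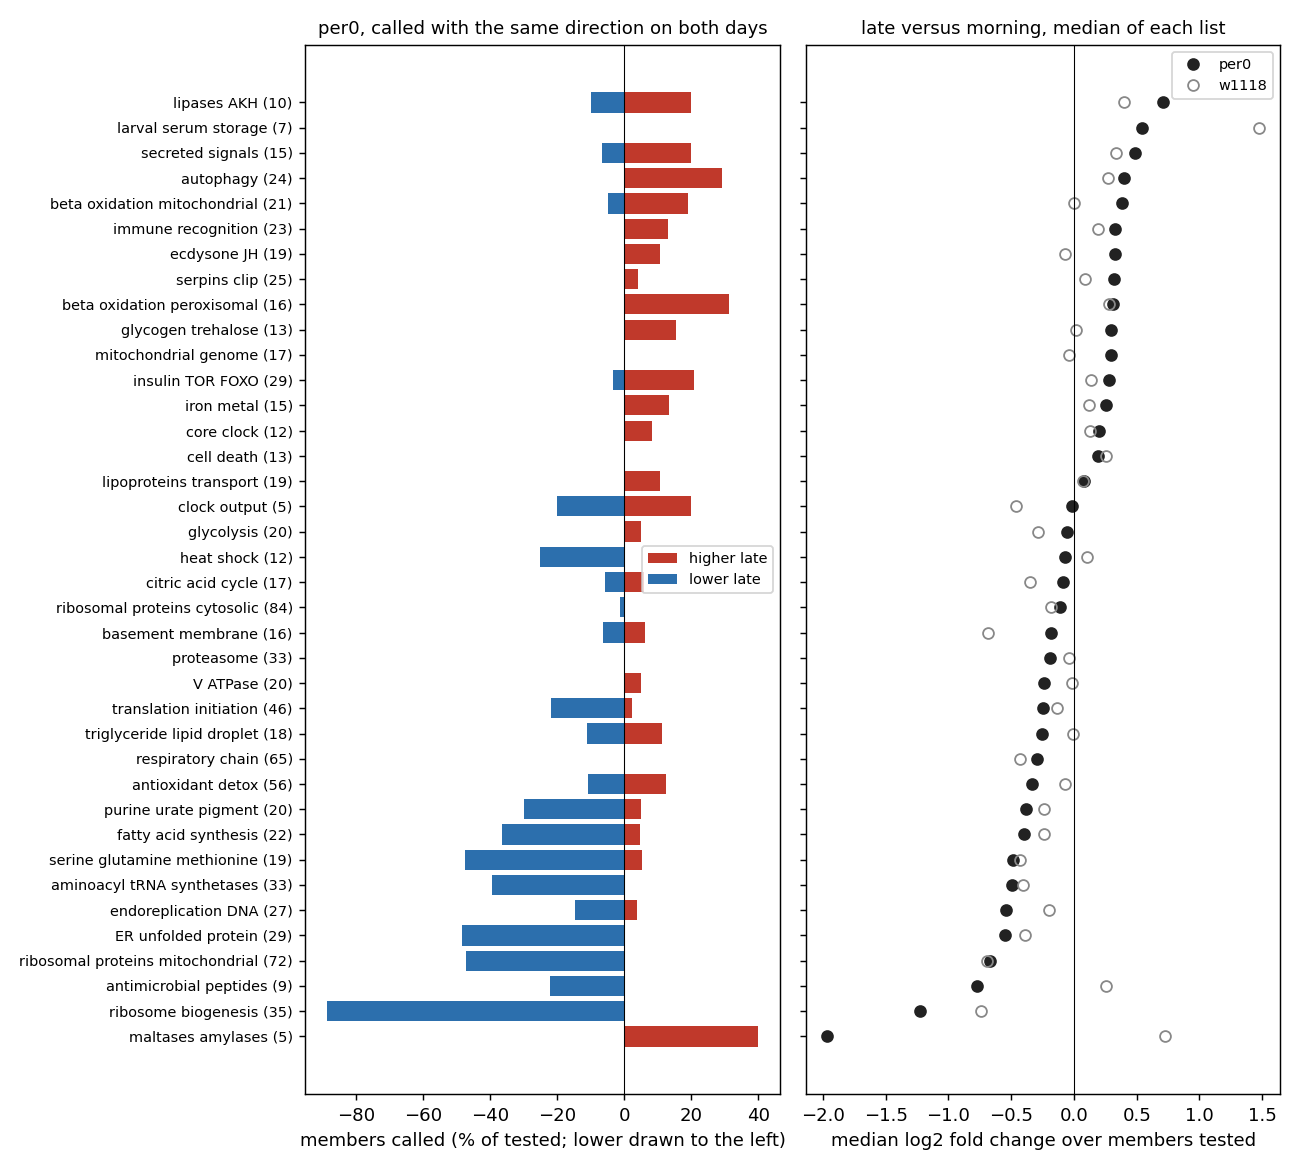
Left, the share of tested members of each list called higher (red, right of 0) or lower (blue, left of 0) in late per0 libraries; right, the median log2 change over tested members in per0 (filled) and w1118 (open). Ribosome biogenesis has 31 of 35 members lower and a median of -1.23 in per0 and -0.74 in w1118.

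The same contrast in w1118 gave many of these changes as well. In a joint fit of 23 libraries and 11136 genes, w1118 had 445 genes at an adjusted p under 0.05 (4.00%), 165 higher (1.48%) and 280 lower (2.51%). Unlike the per0 calls, these did not require the same sign on both days. Of the 605 rises in per0, 570 had a positive estimate in w1118 and 106 were called higher there, with a median of 0.41. Of the 879 falls, 851 had a negative estimate and 201 were called lower, with a median of -0.51. The share of all genes tested with the same sign in both genotypes was not computed. In w1118 REPTOR-BP rose by 1.59 ± 0.16 log2 (adjusted p = 3.89e-05, edgeR), CNMa by 2.94 ± 0.42, Gs1 by 2.11 ± 0.36 and CG4716 by 3.56 ± 0.60. Cth (-1.18 ± 0.21), CG11425 (-2.38 ± 0.41) and Gdh (-1.63 ± 0.33) fell there too. Mitochondrial ribosomal proteins fell in 29 of 72 members in w1118, ribosome biogenesis genes in 3 of 35 and endoplasmic reticulum folding genes in 5 of 29. Testis and gonad markers summed to 114, 699, 970 and 1620 CPM in the late w1118 libraries. In the w1118 morning libraries they summed to 5.57, 6.03, 4.09, 483, 390, 2890, 5.72 and 747 CPM. No marker covariate was run on the w1118 values, so the part of such cells in them was not tested.

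The difference between the genotypes, per0 minus w1118, passed for 1 gene of 11136 (0.00898%), while 709 had an unadjusted p under 0.05. CG3348 was at 689, 1540, 1590, 849, 569, 958 and 1120 CPM in the per0 morning libraries and at 315, 597, 434 and 340 CPM late. In w1118 it was at 684, 624, 390, 574, 248, 360, 625 and 380 CPM in the morning and at 1460, 905, 1290 and 1200 CPM late. The change was -1.25 log2 in per0 and 1.39 log2 in w1118, a difference of -2.64 ± 0.40 (adjusted p = 0.0266, edgeR). The gene with the next smallest p, Sil1, missed the threshold (difference -1.73 ± 0.30, adjusted p = 0.0946). Its w1118 levels were 18.6, 22.0, 11 and 14.2 CPM late and 19.0 to 28.9 CPM in the morning. The per0 morning libraries thus stood above all others of the 23 libraries compared.

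In counts simulated from these libraries over 8782 genes, the fit recovered 44 of 50 genes changed 4-fold, 32 of 100 changed 2-fold and 0 of 50 changed 1.5-fold. Only these genes were changed, all averaging at least 10 CPM, and the same-sign rule was not applied. The simulated fit made 79 calls against 1484 in the data, so its recovery shares may not hold for the data. Genes with no call may still have changed.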

How the data were processed

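Gene counts were used as the authors deposited them, as raw counts for 17610 genes per genotype. The submitters' processing notes list featureCounts, STAR 2.7.9a, DESeq2 1.30.1 and edgeR without their roles. No genome build was given in the sources used here. The SMART-Seq v4 kit, named in the labels' protocols, amplifies by PCR and keeps neither strand nor molecular identifiers, so count floors cover counting error only and overlapping genes share reads. The authors also deposited a normalized signal table of 5930 per0 genes, which entered 1 alternative. In it 99.9% of values lay within 1% of 1 factor per library.

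Counts were fitted with edgeR 4.0.16 in R 4.3.3 (TMM scaling, filterByExpr by late and morning, quasi-likelihood F test), with day and late as terms. A fit with a mean for each day and phase gave each day's change, and a joint fit of 23 libraries gave the w1118 values and the genotype difference. CPM values used TMM factors computed over all 36 libraries. Errors are standard errors of the log2 change. DESeq2 1.42.0 and limma-voom (limma 3.58.1) served as alternatives, with other normalizations, filters, left-out libraries and times, and marker covariates.

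Named genes were the 12 largest called changes each way at a mean of at least 10 CPM, up to 4 per list by p, and the 10 smallest p of the genotype difference; exceptions are marked in the text. CG3348 fell under the last part, and betaTub85D and Prosbeta1 were named as marker and overlapping partner. The members, the 49 gene lists and the tests were chosen with earlier results of these data known. In the lists 1359 genes matched and 26 entries did not. Exon overlaps were taken from gene names in a reference annotation. Whether the duplicates were separate cultures is not stated, so p-values measure only the spread between these pools, which may be technical. In 1 sample titled w1118 CT0 the genotype tag names per0, and the title was followed. The fit was tested on simulated data.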

Additional observations from a re-analysis of the deposited data

Results flagged for a closer look

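Single libraries stood apart in 6 of 174 groups of values examined, where chance gives about 1 in 20. Among the late libraries, Acly was low in CT32 B at 1160 CPM, with the nearest at 2530, and Hsc70-3 was high in CT32 A at 1330 CPM, with the nearest at 791. Among the morning libraries, CT24 A stood above the others for CG4716 at 53.6 CPM (nearest 10.8) and for CG33225 at 2.73 CPM (nearest 1.09). CG8665 was low in CT24 B at 8.33 CPM (nearest 30.8), and daw was high in CT0 B at 168 CPM (nearest 96.8). In CG3348 the late change differed between genotypes, by -2.64 log2 (per0 minus w1118, adjusted p = 0.0266, edgeR), with opposite directions in the 2 genotypes.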

How the results depend on the processing

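Counts below are calls for both days together (1484), the first day (16), the second day (1617), the difference between days (0) and the genotype difference (1), and values not given stayed within 1.5 times. Without a filter on low counts the first 3 were 979, 9 and 1072. At a mean of at least 10 CPM the first day gave 35, the day difference 14 and the genotype difference 3. DESeq2 gave 2285 for both days, 556 for the first day, 333 for the day difference and 34 for the genotype difference, and limma-voom gave 76 for the first day and 3 for the genotype difference. With the mixed CT28 B library the 5 counts were 831, 2, 876, 3 and 0. Leaving out 1 library gave 645 to 1393 for both days, 0 to 87 for the first day, 144 to 1667 for the second, 0 to 9 for the day difference and 0 to 2 for the genotype difference. The first day gave 0 without CT0, and without CT4 both days gave 657 and the first day 0. Without CT24 the first 4 counts were 442, 29, 50 and 1, and without CT28 the first day gave 27 and the day difference 9. With only CT4 and CT28 as the morning the first 3 were 18, 0 and 4, and with only CT0 and CT24 the first 4 were 291, 0, 801 and 1. Both days gave 972 with a roX covariate, 847 with a midgut covariate (first day 3) and 13 with a testis covariate (first day 0, day difference 2). Chosen after seeing the data, leaving out the libraries of low roX1 gave 290, 3 and 345, leaving out those of high midgut markers 256, 0 and 193, and the 3 covariates together 11, 0 and 358. The cause of these shifts was not tested. The share of falls among calls was 59.2% and was 53.4% with RLE scaling, 52.0% with DESeq2, 51.6% at 10 CPM and 73.3% without CT24. Falls were the minority with only CT4 and CT28 as the morning (33.3%), with the testis covariate (23.1%) and with the 3 covariates together (36.4%), which left 18, 13 and 11 calls. The estimate for tim ranged from -0.215 to 2.239 when 1 library was left out, and turned negative without CT32 B, without CT24 (-0.369), with only CT4 and CT28 as the morning (-0.687) and without the low-roX1 libraries (-0.267). No paired analysis was possible because the columns carry letters that no label ties to the replicate numbers; with the letter as a term 1494 genes were called. Depth limited genes near the floor of 0.0942 to 0.2 CPM.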
